A study of Mus musculus with 96 samples.

Results

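The 10 genes described here carry iron and heme through the liver cell, and they are Hamp, Hamp2, Hfe, Tfrc, Slc40a1, Fth1, Ftl1, Alas1, Hmox1 and Spic. They were chosen by symbol from 25094 named genes, with the transcript of highest mean kept where a gene had several, and all 10 were listed in each of the 4 deposited tables. Their levels were followed by genotype and time of day in isolated hepatocytes and liver macrophages of male C57BL/6J mice.

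All 96 libraries came from mice given a virus at 8 weeks of age and fed for the next 4 weeks on a diet rich in both fat and sucrose. Control mice carried floxed alleles and received AAV-TBG-GFP, an adeno-associated virus with a fluorescent protein under a hepatocyte-specific promoter. The other mice received AAV-TBG-CRE, which drives the recombinase from the same promoter, so that both cell types came from mice whose hepatocytes were targeted. RevDKO mice were floxed for both REV-ERB genes (Nr1d1 and Nr1d2), RevScapTKO mice for these and Scap, and ScapKO mice for Scap alone. REV-ERBα and REV-ERBβ are the heme-binding repressors of the circadian clock, and SCAP escorts the sterol-regulated factors SREBP to their activation. Each of the 32 groups, a cell type and genotype at zeitgeber time (ZT) 4, 10, 16 or 22 with lights off at ZT12, held 3 libraries. The study's methods call the replicates biological, while the labels do not tie the libraries to mice.

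The liver sets the iron supply of the whole body. Hepatocytes secrete hepcidin, the product of Hamp, which blocks the iron exporter ferroportin (Slc40a1), while liver macrophages break down red cell heme with heme oxygenase (Hmox1) and return the iron to blood through that exporter. Iron enters cells by the transferrin receptor (Tfrc), is stored in ferritin made of heavy (Fth1) and light (Ftl1) chains, and is built into heme by a pathway whose first enzyme in most tissues is ALAS1. Hfe is a sensor of transferrin iron that raises hepcidin, and Spic is a transcription factor of red pulp and other iron-recycling macrophages. Heme is also the ligand of the REV-ERB proteins.

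Values are RPKTM, which equals the usual RPKM (reads scaled to transcript length and library size) multiplied by 10, after quantile normalization within a table, so levels were compared only within a table. The Control, RevDKO and RevScapTKO libraries of a cell type shared a table, and ScapKO stood in tables of their own, without a control. Differences between genotypes are differences of mean log2(RPKTM + 1) averaged over the 4 time points, with limma's standard error (SE) and its p adjusted over all genes kept. These log2 differences understate the change of low genes. A gene was called at an adjusted p under 0.05.

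The targeted genes checked the labels in part. In hepatocytes the median Scap level was 494 RPKTM in Control, and it was 525 in RevDKO but 210 in RevScapTKO. Median Nr1d1 was 45.9, 91.3 and 131, and median Nr1d2 was 218, 320 and 361, so the transcripts of the deleted REV-ERB genes were not lower, and the libraries are called here as they were labelled. Arntl, a clock gene that REV-ERBs repress, ranged from 4.21 to 119 in Control and from 117 to 155 in RevDKO. The ScapKO hepatocyte libraries carry hepatocyte in their titles and macrophage in another field. Their summed hepatocyte markers (median 1403230) exceeded their summed macrophage markers (median 929), and they were treated as hepatocytes.

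All 12 macrophage markers were detected in the macrophage libraries, whose median marker sums were 19791 RPKTM in Control and, in the RevDKO and RevScapTKO groups, 9968 and 10702. Hepatocyte markers were higher there, with median sums of 108976 (72387 to 2418130), 102549 (62454.5 to 154345) and 108845 (40125 to 842229). In bulk RNA, fewer cells of a type and less RNA per cell cannot be told apart. In the hepatocyte libraries the macrophage marker sum ranged from 262 to 3445 (median 957) in Control, from 455 to 2644 (median 1186) in RevDKO and from 1034 to 6690 (median 3167) in RevScapTKO. Counts were repeated with a marker score of the other cell type as a covariate. The score is the mean log2(RPKTM + 1) of that cell type's 12 markers and not their sum. Counts were also repeated without 5 libraries whose markers set them apart, namely the first replicate of Control hepatocytes at ZT22, Control macrophages at ZT16 replicate 1 and at ZT22 replicates 1 and 3, and RevScapTKO macrophages at ZT22 replicate 3.

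Hamp and Hamp2 are neighbouring hepcidin genes of the mouse on the minus strand of chromosome 7. In the mm9 assembly of the files, Hamp lies at chr7:31727388-31729048 and Hamp2 at chr7:31707391-31709200. The sequences are shown because the genes moved in opposite directions between RevScapTKO and RevDKO hepatocytes while most letters of their promoters are the same. The 250 bases before each start, from RefSeq on GRCm38.p6, run at chr7:30944030-30944279 for Hamp and chr7:30924182-30924431 for Hamp2, with capitals for the bases that differ or have no partner in the other gene.
Hamp: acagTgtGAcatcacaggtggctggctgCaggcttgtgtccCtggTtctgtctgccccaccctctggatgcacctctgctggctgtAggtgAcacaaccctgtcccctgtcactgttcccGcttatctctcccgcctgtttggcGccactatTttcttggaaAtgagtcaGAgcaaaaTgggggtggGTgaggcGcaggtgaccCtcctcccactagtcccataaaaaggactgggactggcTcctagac
Hamp2: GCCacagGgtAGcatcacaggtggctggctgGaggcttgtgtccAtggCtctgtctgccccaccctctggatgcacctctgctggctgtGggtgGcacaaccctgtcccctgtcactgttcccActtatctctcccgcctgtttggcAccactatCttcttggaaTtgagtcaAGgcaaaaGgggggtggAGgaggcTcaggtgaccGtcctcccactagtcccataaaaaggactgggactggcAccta

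In windows that ran 50 bases further, past the start, the pair had the same base at 92.9% of 297 aligned positions. The longest run without a difference was 45 bases. The letters GGCGCC, which match the core of an element that answers to bone morphogenetic proteins (BMP), stood 109 bases before the start of Hamp. They were absent from the Hamp2 window, where G145A (position from 1 at the 5′ end of the Hamp window) breaks them. These letters occurred on either strand in 11.9% of 32851 mouse promoter windows, and among the members with a window only Hamp and Tfrc held them. The letters TTCTTGGAA, a match to sites of STAT factors, stood 97 bases before the start of Hamp and 94 before that of Hamp2, and occurred in 0.417% of windows. A match of letters is a description and not a measured binding site. No member window held CACGTG, an E-box (7.15% of windows), or AGGTCA, the half-site of REV-ERB and ROR receptors (16.3%). The motif TCACNCCAC, a form of the sterol regulatory element (1.24% of windows), stood in Ftl1 alone, 48 bases before its start. Windows were at hand for 8 of the 10 members, Hmox1 and Slc40a1 being the exceptions.

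Hamp and Hamp2 are close copies of each other, so reads from stretches they share could be counted for either gene, and how such reads were assigned is not given in the sources used here. Levels of Hamp and Hamp2 are therefore uncertain to that extent. The other transcripts followed lie in mm9 as Hfe at chr13:23793903-23802723, Tfrc at chr16:32608982-32632880, Slc40a1 at chr1:45964915-45982439, Fth1 at chr19:10055090-10059601, Ftl1 at chr7:52713314-52715256, Alas1 at chr9:106135786-106150061, Hmox1 at chr8:77617517-77624492 and Spic at chr10:88138015-88145768. Tfrc, Fth1 and Hmox1 are on the plus strand and the rest on the minus strand.

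Of the 2 hepcidin genes, Hamp2 differed with genotype in the libraries of both cell types and Hamp in hepatocytes between RevScapTKO and RevDKO. Hamp2 was 2.7-fold higher in RevDKO than in Control hepatocytes. It was 4.70-fold higher in the macrophage libraries of the same genotypes, where the part of hepatocyte RNA was not tested. In RevScapTKO the log2 difference from RevDKO was -2.93 in hepatocytes and -3.17 in macrophages. The human genome has a single hepcidin gene, and the mouse Hamp2 product is known to lack the strong effect on iron that hepcidin from Hamp has.

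In Control hepatocytes, Hamp2 read 68.5, 43.4 and 14.4 RPKTM at ZT4, 54.3, 173 and 87.2 at ZT10, 52.8, 19.3 and 76.4 at ZT16, and 19.7, 58.6 and 28.0 at ZT22. The RevDKO libraries read 60.7, 79.7 and 82.2 at ZT4, 84.1, 183 and 156 at ZT10, 121, 156 and 225 at ZT16, and 137, 225 and 152 at ZT22. At ZT16 and at ZT22 each RevDKO value exceeded each Control value, and the groups overlapped at ZT4 and ZT10. The RevScapTKO libraries read 17, 8.43 and 6.49 at ZT4, 22.3, 45.5 and 21.6 at ZT10, 11.6, 22.3 and 8.29 at ZT16, and 10.1, 11.6 and 43.8 at ZT22. All 12 RevScapTKO libraries lay below all 12 RevDKO libraries. The difference of RevDKO from Control was 1.45 ± 0.28 (SE, n = 12 libraries each, limma adjusted p = 0.000903). That of RevScapTKO from RevDKO was -2.93 ± 0.28 (adjusted p = 1.6e-09), and that of RevScapTKO from Control was -1.48 ± 0.28 (adjusted p = 0.000119). By median the order of levels was RevScapTKO, Control and RevDKO. Over all hours the neighbours in that order overlapped, with 3 of 12 RevDKO libraries above all Control libraries and 6 of 12 RevScapTKO libraries below them. With the macrophage marker score as a covariate the difference of RevScapTKO from Control was no longer called (-1.20, adjusted p = 0.0684), while the other differences of Hamp2 were (1.5, adjusted p = 0.000645, and -2.67, adjusted p = 1.39e-05). The comparisons share the RevDKO or the Control libraries.

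**Figure D1:**
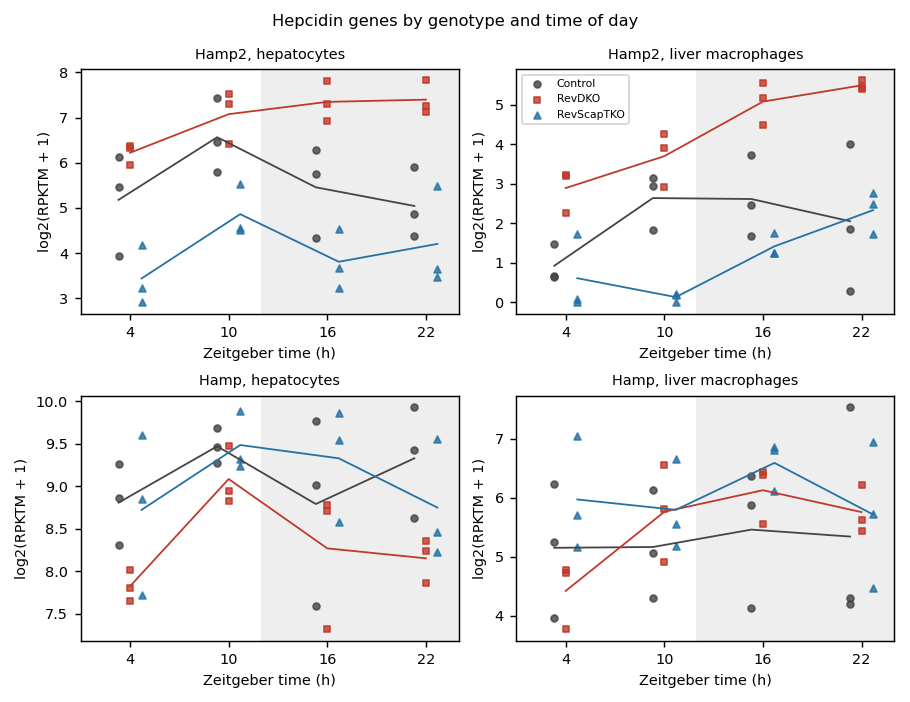
Hamp2 and Hamp by library in hepatocytes and liver macrophages, as log2(RPKTM + 1) against zeitgeber time in hours, with points for single libraries set side by side, lines through the 3-library means, and shading for the dark phase. Hamp2 of RevDKO lies above that of RevScapTKO at all 4 time points in both cell types, while the Hamp points of the genotypes overlap widely.

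In macrophages Hamp2 was low, and its medians had the same order (1.38, 2.59 and 19.9 RPKTM). Control libraries read 0.564, 1.77 and 0.593 RPKTM at ZT4, 2.58, 6.69 and 7.80 at ZT10, 2.19, 4.49 and 12.2 at ZT16, and 0.233, 2.6 and 15.2 at ZT22. RevDKO libraries read 8.36, 8.19 and 3.78 at ZT4, 14.1, 18.3 and 6.56 at ZT10, 21.6, 35.2 and 46.2 at ZT16, and 48.0, 42.9 and 41.3 at ZT22. RevDKO lay above Control without overlap at ZT4, ZT16 and ZT22. RevScapTKO libraries read 0.070, 0.013 and 2.31 at ZT4, 0.159, 0 and 0.144 at ZT10, 1.38, 1.37 and 2.40 at ZT16, and 2.31, 5.83 and 4.67 at ZT22. They lay below RevDKO without overlap at each time point. The difference of RevDKO from Control was 2.23 ± 0.34 (limma adjusted p = 0.000211), that of RevScapTKO from RevDKO was -3.17 ± 0.34 (adjusted p = 6.85e-08), and that of RevScapTKO from Control was -0.93 ± 0.34 (adjusted p = 0.121). Hamp2 passed the filter on low values through 16 of 36 macrophage libraries, 11 of them RevDKO, 4 Control and 1 RevScapTKO. The hepatocyte marker sums of these libraries had medians of 108976, 102549 and 108845 RPKTM in Control, RevDKO and RevScapTKO, with highest values of 2418130, 154345 and 842229. In the hepatocyte libraries, which were normalized in another table, they had medians of 715865, 663173 and 657621, with median Hamp2 of 53.5, 145 and 14.3. How much of the macrophage Hamp2 signal came from hepatocyte RNA was not tested. With the hepatocyte marker score as a covariate both called differences were called again (2.26, adjusted p = 0.000141, and -3.04, adjusted p = 5.77e-06). That score follows the amount of hepatocyte RNA and not the genotype difference within it, so these calls cannot tell the source. Without Control ZT22 replicate 1, the Hamp2 difference of RevScapTKO from Control was -1.15 (adjusted p = 0.0282).

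Hamp, the gene of the circulating hormone, was higher in RevScapTKO than in RevDKO hepatocytes. Its levels ran from 191 to 972 RPKTM (median 613) in Control, from 158 to 710 (median 314) in RevDKO and from 210 to 947 (median 622) in RevScapTKO. The RevDKO libraries lay below Control without overlap at ZT4 (258, 200 and 222 against 462, 611 and 316) and at ZT22 (326, 302 and 232 against 972, 394 and 689). The difference of RevDKO from Control was -0.77 ± 0.23 and missed the threshold (limma adjusted p = 0.0525), while RevScapTKO rose above RevDKO by 0.74 ± 0.23 (adjusted p = 0.0185) and differed from Control by -0.03 ± 0.23 (adjusted p = 0.935). The difference of RevScapTKO from RevDKO was not called with the macrophage marker score (1.07, adjusted p = 0.0609) or the hepatocyte marker score (0.62, adjusted p = 0.0582) as a covariate. The RevDKO difference from Control crossed the threshold when any of 6 libraries was left out, with Control ZT16 replicate 2 giving the lowest adjusted p of 0.00873. The other 5 were Control ZT4 replicate 3 (0.0344), Control ZT22 replicate 2 (0.0306), RevDKO ZT10 replicate 2 (0.0487) and RevDKO ZT16 replicates 1 (0.0474) and 2 (0.0411). In macrophages Hamp read 14.6 to 184 RPKTM (median 34.7) in Control, 12.6 to 93.5 (median 47.1) in RevDKO and 21.2 to 131 (median 59.9) in RevScapTKO, and none of the 3 differences was called (lowest limma adjusted p = 0.287).

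Counted over the 10 members, RevDKO against Control called 1 in each cell type, Hamp2, higher. The background in hepatocytes was 4.43% of 13325 genes in either direction and 2.43% lower, and in macrophages 0.402% of 13946 genes were higher and 0.172% lower. RevScapTKO against RevDKO called 7 members in hepatocytes, 6 higher (background 13.5%) and 1 lower (12.7%), and in macrophages Hamp2 alone, lower (1.78%, against 1.23% higher). RevScapTKO against Control called 4 in hepatocytes, 3 higher (17.3%) and 1 lower (18.7%), and 2 in macrophages, Alas1 higher (2.38%) and Hmox1 lower (1.38%). The median log2 difference of the members was -0.19, 0.48 and 0.25 in the hepatocyte comparisons, in the order given here, against -0.01, -0.03 and -0.04 over all genes kept. All 10 members passed the filter on low values (over 5 RPKTM in at least 3 libraries) in these tables, but Spic did so in hepatocytes through 6 libraries, 4 of them RevScapTKO. It passed only through the genotype where it was high, and without it RevScapTKO called 6 of 9 members against RevDKO, 5 of them higher, and 3 of 9 against Control, 2 of them higher.

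**Figure D2:**
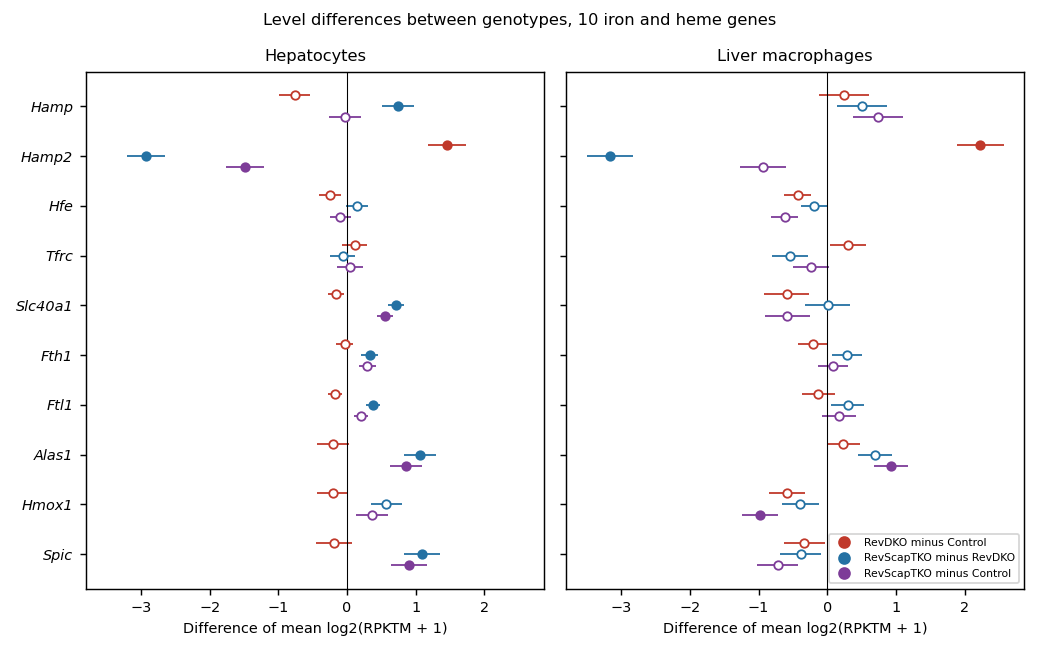
Differences of mean log2(RPKTM + 1) between genotypes for the 10 members in hepatocytes and liver macrophages, with bars of 1 SE, filled points for adjusted p under 0.05 and open points otherwise. Hamp2 has the widest differences in both cell types, to -2.93 in hepatocytes and -3.17 in macrophages, and most other members in macrophages are open points. Spic passed the filter in hepatocytes only through RevScapTKO libraries, so its filled points there are not read as calls.

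Hfe, the iron sensor upstream of hepcidin, was not called in any comparison. Its hepatocyte levels were 91.4 to 218 RPKTM (median 133) in Control, 23.5 to 190 (median 128) in RevDKO and 71.2 to 178 (median 125) in RevScapTKO, with differences from -0.24 to 0.15. In macrophages it read 117 to 360 (median 199) in Control, 109 to 221 (median 149) in RevDKO and 69.2 to 233 (median 122) in RevScapTKO. RevScapTKO against Control gave -0.62 ± 0.20 (limma adjusted p = 0.0724), and this difference was called with the hepatocyte marker score as a covariate (-0.92, adjusted p = 0.00714). It was also called without Control ZT22 replicate 3 (0.0274) or without RevScapTKO ZT10 replicate 1 (0.0153), ZT16 replicate 1 (0.0392) or ZT22 replicate 2 (0.0439).

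Tfrc, the import receptor, was not called between genotypes in either cell type. Median hepatocyte levels were 281, 313 and 252 RPKTM in Control, RevDKO and RevScapTKO, within a range of 116 to 670 over all 36 libraries, and no difference exceeded 0.11 in size. In macrophages the medians were 69.2, 84.2 and 68.5, and the widest difference was -0.54 ± 0.27 for RevScapTKO against RevDKO (limma adjusted p = 0.27).

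Slc40a1, the exporter, was highest in RevScapTKO hepatocytes. Control libraries read 495, 471 and 372 RPKTM at ZT4, 471, 635 and 534 at ZT10, 715, 856 and 662 at ZT16, and 716, 911 and 1001 at ZT22. RevDKO libraries read 408, 391 and 421 at ZT4, 410, 486 and 366 at ZT10, 775, 702 and 944 at ZT16, and 778, 760 and 611 at ZT22. These groups overlapped at every time point, and both were higher at ZT16 and ZT22 than at ZT4. RevScapTKO libraries read 681, 814 and 1075 at ZT4, 778, 961 and 792 at ZT10, 906, 1336 and 1307 at ZT16, and 1237, 504 and 1022 at ZT22. All RevScapTKO libraries lay above all Control libraries at ZT4, ZT10 and ZT16, and above RevDKO at ZT4 and ZT10. The difference was 0.72 ± 0.12 from RevDKO (1.64-fold, limma adjusted p = 3.67e-05) and 0.55 ± 0.12 from Control (1.46-fold, adjusted p = 0.000498), and RevDKO differed from Control by -0.17 ± 0.12 (adjusted p = 0.513). With the macrophage marker score as a covariate the first remained called (0.70, adjusted p = 0.00909) and the second did not (0.54, adjusted p = 0.0546). Median sums of endothelial markers were also higher in RevScapTKO than in RevDKO hepatocyte libraries (1921 against 1195 RPKTM). So were those of stellate markers (2475 against 1092), and the part of either in the Slc40a1 values was not tested.

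In macrophages Slc40a1 ran from 513 to 5628 RPKTM (median 2567) in Control, from 623 to 3953 (median 1395) in RevDKO and from 715 to 5628 (median 1422) in RevScapTKO, and none of the differences was called. With the hepatocyte marker score as a covariate, RevScapTKO against Control was called, lower (-1.34, limma adjusted p = 0.00857). Over the 36 libraries the genes with the most similar pattern were Csf1r, Adgre1 and Lyz2, all macrophage markers, with Pearson r of 0.976, 0.975 and 0.968. These correlations share libraries and their macrophage content and are given as a description.

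The ferritin chains were higher in RevScapTKO than in RevDKO hepatocytes, by less than the other called members. In hepatocytes Fth1 ran from 643 to 928 RPKTM (median 731) in Control, from 425 to 1235 (median 739) in RevDKO and from 668 to 1450 (median 884) in RevScapTKO. Ftl1 ran from 1003 to 2221 (median 1665), from 963 to 1877 (median 1532) and from 1364 to 2631 (median 1939). RevScapTKO was higher than RevDKO for both, by 0.33 ± 0.12 for Fth1 (limma adjusted p = 0.0473) and 0.38 ± 0.10 for Ftl1 (adjusted p = 0.00647). With the macrophage marker score as a covariate the differences were 0.35 ± 0.17 and 0.32 ± 0.14, close in size to the first values with wider errors, and neither was called (adjusted p = 0.424 and 0.313). The Fth1 call was lost in 18 of 24 omissions of a single library, with adjusted p up to 0.12 without RevScapTKO ZT16 replicate 3. It held without RevDKO ZT10 replicate 2, RevDKO ZT22 replicate 3, RevScapTKO ZT10 replicate 1, ZT16 replicate 1, ZT16 replicate 2 or ZT22 replicate 1. Against Control Fth1 differed by 0.29 ± 0.12 (adjusted p = 0.0633), which was called without Control ZT4 replicate 1 (0.0484), RevScapTKO ZT10 replicate 1 (0.0376) or ZT16 replicate 1 (0.0254). The Fth1 transcript of highest mean is a non-coding RefSeq record that overlaps the coding one, and its reads cannot be told from those of the coding transcript. In macrophages neither chain was called, with medians of 458, 359 and 437 for Fth1 and 1031, 966 and 1019 for Ftl1.

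Tfrc, Slc40a1, Fth1 and Ftl1 are also controlled after transcription by iron-responsive elements, stem-loops in the untranslated regions (UTRs) that bind the iron regulatory proteins. The stems found in GENCODE transcripts on NCBIM37 are shown with the CAGTG of the loop in capitals. The mRNA levels measured here cannot reveal a control of translation, and for Tfrc they do not separate mRNA stability from transcription.
Tfrc site 1: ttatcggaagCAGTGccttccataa
Tfrc site 2: ttatcgggagCAGTGtcttccataa
Tfrc site 3: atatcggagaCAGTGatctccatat
Tfrc site 4: ttatcgggaaCAGTGtttcccataa
Fth1: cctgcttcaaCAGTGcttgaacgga
Slc40a1: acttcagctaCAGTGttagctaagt
Ftl1: cttgcttcaaCAGTGtttgaacgga

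The Tfrc sites lay in the 3′ UTR, where the binding proteins stabilise the mRNA, and the others in 5′ UTRs, where they block translation. The pattern searched was a C, then 5 bases, CAGTG and 1 base other than G, and 5 bases that pair with the first 5, G with T allowed. It occurred in 0.106% of 46134 annotated 5′ UTRs and 0.387% of 43420 3′ UTRs, and the annotated UTRs of the other 6 members held none. Among the 4 members with a site, Slc40a1, Fth1 and Ftl1 were called higher in RevScapTKO than in RevDKO hepatocytes (background 13.5%) and Tfrc was not (-0.07 ± 0.19). The calls of Fth1 and Ftl1 were lost with the macrophage marker score as a covariate (limma adjusted p = 0.424 and 0.313). A relation of these calls to the elements was not tested.

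Alas1, the first enzyme of heme synthesis, was higher in RevScapTKO than in either other genotype in hepatocytes. Control libraries read 770, 619 and 285 RPKTM at ZT4, 1233, 1667 and 2215 at ZT10, 3310, 1532 and 778 at ZT16, and 600, 680 and 915 at ZT22. RevDKO libraries read 1737, 728 and 671 at ZT4, 533, 650 and 877 at ZT10, 1375, 1903 and 926 at ZT16, and 634, 502 and 809 at ZT22. RevDKO lay below Control without overlap at ZT10 and overlapped it elsewhere. RevScapTKO libraries read 2064, 3108 and 929 at ZT4, 1501, 1485 and 1525 at ZT10, 2017, 3161 and 2215 at ZT16, and 945, 3408 and 1216 at ZT22. They lay above RevDKO without overlap at ZT10, ZT16 and ZT22, and above Control at ZT4 and ZT22. The difference was 1.06 ± 0.23 from RevDKO (2.09-fold, limma adjusted p = 0.00124) and 0.85 ± 0.23 from Control (1.81-fold, adjusted p = 0.00523), and RevDKO differed from Control by -0.21 ± 0.23 (adjusted p = 0.725). Both calls held with the macrophage marker score as a covariate (1.52, adjusted p = 0.00215, and 1.35, adjusted p = 0.00688).

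Alas1 was also higher in the RevScapTKO macrophage libraries. It ran from 59.5 to 504 RPKTM (median 170) in Control, from 75.8 to 344 (median 214) in RevDKO and from 98.05 to 720 (median 354) in RevScapTKO. The difference from Control was 0.93 ± 0.24 (1.90-fold, limma adjusted p = 0.0218), and that from RevDKO was 0.69 ± 0.24 (adjusted p = 0.121). At ZT4 the RevScapTKO libraries (263, 433 and 312) lay above all Control (187, 153 and 89.5) and RevDKO (240, 199 and 189) libraries. The call against Control was lost without Control ZT10 replicate 1 (adjusted p = 0.0514), Control ZT16 replicate 3 (0.0501), RevScapTKO ZT10 replicates 2 (0.0539) or 3 (0.0567), ZT16 replicate 2 (0.0544) or ZT22 replicate 3 (0.0512). The difference from RevDKO was called without RevScapTKO ZT10 replicate 1 (0.85, adjusted p = 0.0264) and with the hepatocyte marker score as a covariate (1.05, adjusted p = 0.0101). Without the filter on low values the difference from Control was not called (adjusted p = 0.0694). Hepatocyte marker sums of these libraries had medians of 108976, 102549 and 108845 RPKTM in Control, RevDKO and RevScapTKO, with highest values of 2418130, 154345 and 842229. In the hepatocyte libraries, normalized in another table, median Alas1 was 846, 768 and 1771. How much of the macrophage Alas1 signal came from hepatocyte RNA was not tested. The covariate follows the amount of that RNA and not the genotype difference within it. Annotated lincRNA 4930500F10Rik overlaps Alas1 on the other strand, and whether the counting used strand is not given in the sources used here.

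Hmox1, which degrades heme, was lower in RevScapTKO than in Control macrophages. It ran from 135 to 754 RPKTM (median 371) in Control, from 112 to 333 (median 260) in RevDKO and from 86.7 to 482 (median 162) in RevScapTKO. The difference of RevScapTKO from Control was -0.98 ± 0.27 (limma adjusted p = 0.0301), that of RevDKO from Control was -0.59 ± 0.27 (adjusted p = 0.326) and that of RevScapTKO from RevDKO was -0.39 ± 0.27 (adjusted p = 0.476). The macrophage marker sum was lower in both knockouts than in Control, with medians of 19791, 9968 and 10702 RPKTM in Control, RevDKO and RevScapTKO. With the macrophage marker score as a covariate the Hmox1 difference of RevScapTKO from Control was -0.65 (adjusted p = 0.0335). Without the libraries set apart the difference was -0.94 (adjusted p = 0.0506). Leaving out any of 12 libraries moved the adjusted p to between 0.0507 and 0.0783, and these were Control ZT4 replicate 1, ZT10 replicate 2, ZT16 replicates 1 and 2 and ZT22 replicates 1 and 2, and RevScapTKO ZT4 replicate 3, ZT10 replicates 2 and 3, ZT16 replicates 2 and 3 and ZT22 replicate 3.

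In hepatocytes no Hmox1 difference between genotypes was called. It ran from 10.6 to 122 RPKTM (median 28.8) in Control, from 10.7 to 76.7 (median 37.4) in RevDKO and from 19.1 to 95.7 (median 62.3) in RevScapTKO. RevDKO lay below Control without overlap at ZT22, and RevScapTKO lay above RevDKO at that hour. RevScapTKO differed from RevDKO by 0.57 ± 0.23 (limma adjusted p = 0.0627). That difference was called without RevDKO ZT4 replicate 3 (adjusted p = 0.0323), RevDKO ZT10 replicate 1 (0.0466), RevDKO ZT16 replicate 3 (0.0421), RevScapTKO ZT4 replicate 2 (0.0423) or RevScapTKO ZT10 replicate 3 (0.0398). With the macrophage marker score as a covariate its sign turned (-0.39, adjusted p = 0.429), and RevScapTKO was below Control (-0.68, adjusted p = 0.043). The 3 genes most like Hmox1 over the 36 hepatocyte libraries were Pltp, Adgre4 and Clec4f (Pearson r = 0.919, 0.906 and 0.895), and Clec4f is one of the macrophage markers.

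Spic, the iron-recycling transcription factor, was near the lower limit of these tables in hepatocytes. Control libraries ran from 0 to 8.55 RPKTM (median 2.04), RevDKO from 0 to 6.80 (median 1.5) with all 3 ZT4 libraries listed at 0, and RevScapTKO from 2.41 to 11.3 (median 3.86). The differences of RevScapTKO were 1.09 from RevDKO and 0.90 from Control, given with no test because Spic passed the filter only through the RevScapTKO libraries. The macrophage marker sum was higher in RevScapTKO too, and with the macrophage marker score as a covariate the differences were 0.66 and 0.43. In macrophages Spic ran from 17.3 to 64.5 (median 35.0) in Control, from 13.9 to 57.7 (median 25.6) in RevDKO and from 7.21 to 53.1 (median 22.1) in RevScapTKO, with no difference called (RevScapTKO against Control -0.72 ± 0.30, adjusted p = 0.187). That difference was called with the hepatocyte marker score as a covariate (-1.29, adjusted p = 0.0095).

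**Figure D3:**
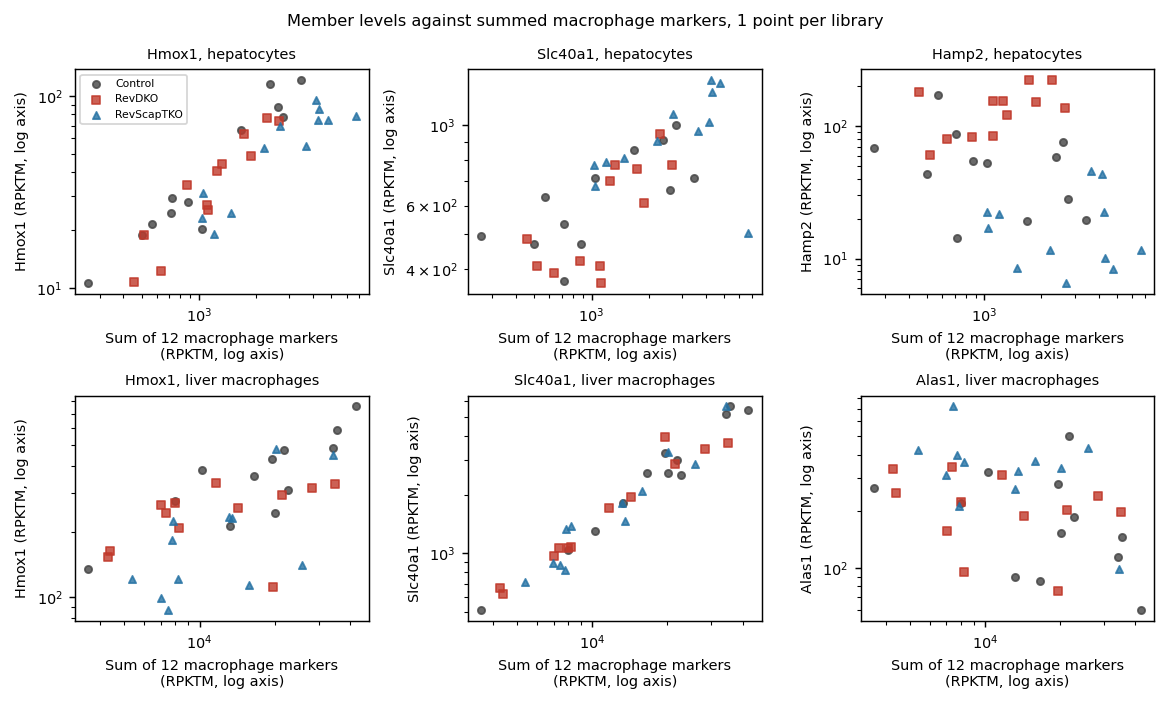
RPKTM of Hmox1, Slc40a1 and Hamp2 in hepatocytes and of Hmox1, Slc40a1 and Alas1 in liver macrophages, against the summed RPKTM of 12 macrophage markers, both on log axes, with 1 point per library coloured by genotype. Slc40a1 and Hmox1 rise with the marker sum in macrophages and Hmox1 does so in hepatocytes, while the Hamp2 points of RevDKO hepatocytes, all at or above 60.7 RPKTM, lie above those of RevScapTKO, all at or below 45.5.

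Time of day was tested within each genotype as a 24-h cosine on log2(RPKTM + 1), and its peak-to-trough size is called amplitude. In Control hepatocytes 4 of the 10 members were called, against 8.29% of all genes kept. Hmox1 had an amplitude of 2.45 with its peak at ZT19.7 (limma adjusted p = 0.00254), Alas1 2.01 at ZT13.6 (0.0173), Tfrc 1.74 at ZT16.2 (0.00888) and Slc40a1 1.0 at ZT18.8 (0.0171). All 4 peaks fell in the dark phase, when mice feed. Control Hmox1 read 10.6, 18.8 and 29.5 RPKTM at ZT4, 28.1, 21.4 and 24.6 at ZT10, 20.2, 66.5 and 87.0 at ZT16, and 122, 116 and 77.5 at ZT22. Control Tfrc read 170, 116 and 128 at ZT4, 226, 285 and 363 at ZT10, 276, 670 and 514 at ZT16, and 466, 299 and 196 at ZT22. Every ZT22 library of Hmox1 lay above every ZT4 and ZT10 library, and every ZT4 library of Tfrc lay below every other library.

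In RevDKO hepatocytes 2 members were called (background 4.08%), Slc40a1 with an amplitude of 1.24 at ZT18.5 (limma adjusted p = 0.00746) and Hmox1 with 2.07 at ZT19.3 (0.0227). In RevScapTKO hepatocytes none of the 10 was called (background 0.683%), and the amplitude of Hmox1 there was 1.74 (adjusted p = 0.104). By the unadjusted p of limma under 0.05, Hmox1 and Ftl1 passed there, 2 of the 10, against 18.3% of all genes. The macrophage marker sum itself moved with the hour, its median in Control hepatocyte libraries being 500 RPKTM at ZT4, 712 at ZT10, 1673 at ZT16 and 2770 at ZT22. With the macrophage marker score as a covariate, Alas1 remained called in Control (2.35, adjusted p = 0.0168). Hmox1 (0.24, adjusted p = 0.886), Slc40a1 (0.97, adjusted p = 0.252) and Tfrc (1.30, adjusted p = 0.0741) did not, and in RevDKO neither Hmox1 (0.65, adjusted p = 0.537) nor Slc40a1 (1.22, adjusted p = 0.0559) did.

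JTK_CYCLE, a rank test of rhythm that the study used, called 3 members in Control hepatocytes with the series entered 2 times (Tfrc, Slc40a1 and Alas1, against 20.1% of all genes) and did not call Hmox1. In RevDKO it called 6 (19.8% of all genes), namely Hmox1, Slc40a1, Tfrc, Ftl1, Hfe and Hamp2.

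Single libraries decided some of the limma calls. In Control, Slc40a1 (adjusted p = 0.056) and Tfrc (0.0727) were lost without ZT16 replicate 2, and Alas1 without ZT4 replicate 3 (0.0572) or ZT16 replicate 1 (0.056), while Spic was called without ZT4 replicate 1 (0.0417) or ZT10 replicate 1 (0.0315). In RevDKO, Hmox1 was lost without ZT4 replicate 2 (0.0544), ZT10 replicate 2 (0.0735), ZT16 replicate 3 (0.0664) or ZT22 replicate 1 (0.0582). Ftl1 was called there without ZT10 replicate 1 (0.0476), and Hfe without ZT4 replicate 1 (0.0384) or 3 (0.0255). In RevScapTKO, Hmox1 was called without ZT10 replicate 2 (2.14, adjusted p = 0.0357).

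**Figure D4:**
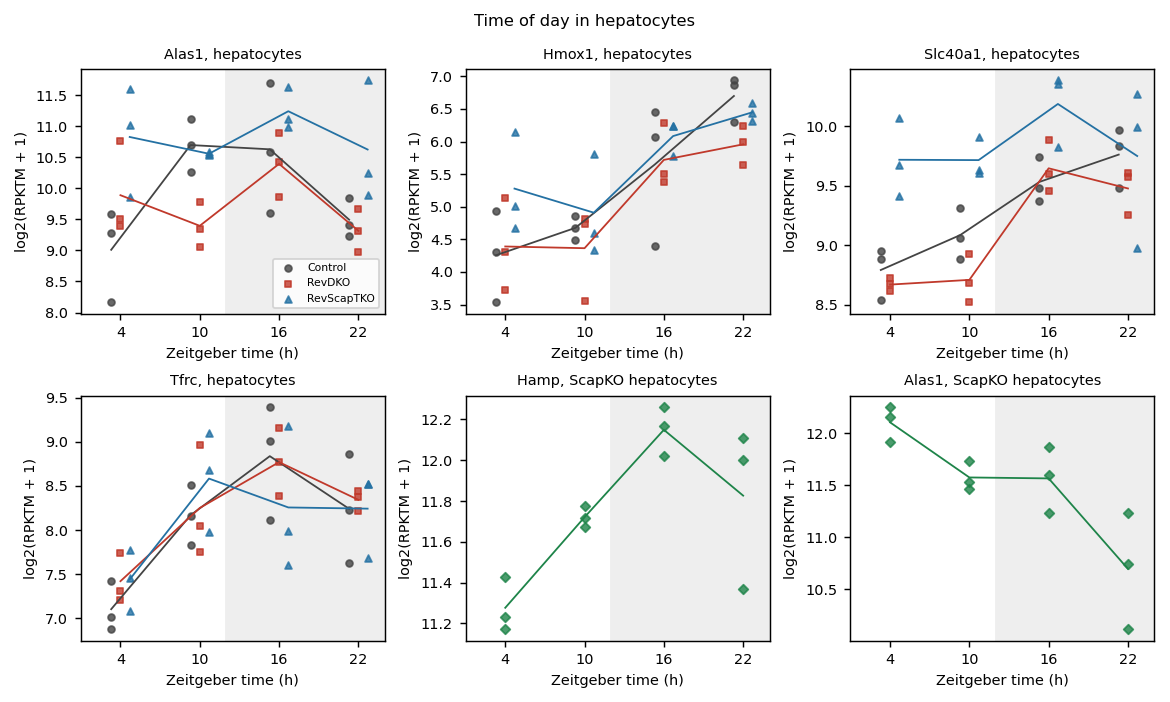
Alas1, Hmox1, Slc40a1 and Tfrc by library in Control, RevDKO and RevScapTKO hepatocytes, and Hamp and Alas1 in ScapKO hepatocytes, as log2(RPKTM + 1) against zeitgeber time in hours, with points for libraries, lines through the means of 3 and shading for the dark phase. The Alas1 line of Control rises from ZT4 to the dark phase (amplitude 2.01) and that of RevDKO is flatter (0.51), and the y axes differ between panels.

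No member's rhythm was shown to differ between genotypes. The test of the difference in cosine terms called 0 of the 10 for RevDKO against Control in hepatocytes, where 27 genes (0.203%) passed, and 0 for RevScapTKO against RevDKO or in either macrophage comparison, where 0.00% did. By limma's unadjusted p under 0.05, 2 members passed in each hepatocyte comparison (4.91% and 5.06% of all genes) and 0 in each macrophage comparison (5.50% and 3.57%). These were Ftl1 (amplitude 0.72 in RevDKO and 0.27 in Control) and Hamp2 (1.17 and 1.55), then Slc40a1 (0.47 in RevScapTKO and 1.24 in RevDKO) and Spic (0.56 and 1.9), all with limma's adjusted p of at least 0.944. Spic entered the hepatocyte tests only through RevScapTKO libraries, so its p is not read as a result. The amplitude of Alas1 was 2.01 in Control and 0.51 in RevDKO (unadjusted p = 0.0737, adjusted p = 0.9999). That Alas1 was called in Control and not in RevDKO is thus not shown to be a difference between them.

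In macrophages 1 member was called for time of day, Hamp2 in RevDKO, with an amplitude of 2.83 at ZT18.6 (limma adjusted p = 0.0424, background 2.53%). All 6 of its libraries at ZT16 and ZT22 exceeded all 6 at ZT4 and ZT10. The call was lost in 11 of 12 omissions of a library, that of ZT10 replicate 1 being the exception (adjusted p = 0.045), with adjusted p up to 0.0842 without ZT4 replicate 3 and an amplitude of 2.59 to 3.06. The macrophage marker sum fell over the same hours, from a median of 28272 at ZT4 to 19594, 7376 and 7044, and the hepatocyte marker sum stood at 71782, 117631, 87153 and 153745. With the score of either list as a covariate the call was lost (2.55, adjusted p = 0.164, for hepatocyte markers and 1.70, adjusted p = 0.232, for macrophage markers). In Control, RevScapTKO and ScapKO macrophages no member was called, against 0.0502%, 0.0789% and 0.00% of all genes. By limma's unadjusted p under 0.05, 2 members passed in Control (Hamp2 and Alas1, 7.98% of all genes), 1 in RevScapTKO (Hamp2, 3.73%) and 1 in ScapKO (Spic, 10.1%). JTK_CYCLE with the series entered 2 times called Tfrc in Control macrophages (10.2% of all genes), Slc40a1, Hamp and Hamp2 in RevDKO (15.7%), none in RevScapTKO (7.70%) and Spic in ScapKO (13.6%).

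The ScapKO tables gave levels without a control. In ScapKO hepatocytes 9 members were tested, as Spic (0 to 3.36 RPKTM, 6 of 12 libraries listed at 0) was below the filter, and Hamp was called for time of day (background 1.85%). It read 2403, 2753 and 2303 RPKTM at ZT4, 3502, 3365 and 3258 at ZT10, 4901, 4604 and 4151 at ZT16, and 4416, 2646 and 4094 at ZT22. Every ZT16 library lay above every ZT4 and ZT10 library, and the amplitude was 0.88 with a peak at ZT16.5 (limma adjusted p = 0.0433). The call held without ZT22 replicate 1, 2 or 3, and was lost without any of the other 9 libraries, with adjusted p up to 0.156 without ZT16 replicate 1. Alas1 read 3859, 4874 and 4564 at ZT4, 2831, 3398 and 2963 at ZT10, 2403, 3107 and 3744 at ZT16, and 1108, 1717 and 2403 at ZT22. All 3 of its ZT4 libraries lay above all other libraries, and its amplitude was 1.03 with a peak at ZT7.9 (adjusted p = 0.0851). The Alas1 amplitude was called without ZT22 replicate 2 (0.0436) or 3 (0.019), and that of Slc40a1 (0.47, adjusted p = 0.505) without ZT22 replicate 2 (0.77, adjusted p = 0.00986). ZT22 replicate 2 had a macrophage marker sum of 3713 RPKTM (median 929) and an endothelial sum of 5372 (median 1199). The hepatocyte marker sum of ZT22 replicate 1 was 506675 (median 1403230). No marker covariate was fitted for ScapKO, so the part of cell makeup in these calls was not tested. With free means for the 4 time points in place of the cosine, Hamp was not called (limma adjusted p = 0.089) and Alas1 was (0.0349).

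Within the ScapKO hepatocyte table the members were ordered by median as Ftl1 (4147 RPKTM), Hamp (3434), Alas1 (3035), Fth1 (2659), Slc40a1 (1118), Tfrc (371), Hfe (253), Hmox1 (48.0), Hamp2 (27.1) and Spic (0.489). Ranges of the first 4 overlapped each other. In ScapKO macrophages Slc40a1 led with a median of 22085, followed by Ftl1 (11322), Fth1 (4361), Hmox1 (4018) and Hfe (1174), then Alas1 (754), Tfrc (244), Spic (216), Hamp (114) and Hamp2, which was listed at 0 in 7 of 12 libraries. The library ZT22 replicate 2 stood apart there, with 4254 for Slc40a1, 843 for Hmox1, 3926 for Ftl1 and 1274 for Hamp, and a macrophage marker sum of 24574 against a median of 129013. In Control hepatocytes the order by median was Ftl1 (1665), Alas1 (846), Fth1 (731), Slc40a1 (649), Hamp (613), Tfrc (281), Hfe (133), Hamp2 (53.5), Hmox1 (28.8) and Spic (2.04), with the ranges of Alas1, Fth1, Slc40a1 and Hamp overlapping.

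The other genes of the pathways were taken from lists of heme synthesis, heme breakdown and transport, iron uptake, transport and storage, and hepcidin control, in addition to the members. In RevDKO hepatocytes 4 of 8 heme synthesis genes were called against Control, 2 higher and 2 lower. Uros, which closes the tetrapyrrole ring, rose by 0.73 ± 0.13 (limma adjusted p = 0.000497) and Ppox, the next-to-last enzyme, by 0.36 ± 0.09 (0.013), and Alad and Cpox were the lower ones. Of 14 genes of heme breakdown and transport, 1 was higher, the constitutive heme oxygenase Hmox2 (0.31 ± 0.08, 0.0203), and 1 lower, the haemoglobin scavenger haptoglobin, Hp (-1.0 ± 0.20, 0.00151). Of 20 iron genes none was higher and 2 were lower, the mitochondrial iron importer Slc25a37 (-0.67 ± 0.11, 9.40e-05) and the iron chaperone Pcbp1. Of 19 genes of hepcidin control, 1 was lower, Id1, a target of BMP signalling. The medians of these lists were -0.15, -0.02, -0.09 and -0.01, against -0.01 over all genes, and the share called over all genes was 4.43%. With the macrophage marker score as a covariate all 9 genes called over the 4 lists were called again.

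In RevScapTKO against RevDKO hepatocytes (26.3% of all genes called), 3 of 8 heme synthesis genes were lower and none higher. In heme breakdown and transport 6 of 14 were higher and 1 lower, with Slc48a1, a heme transporter of lysosomes, up by 0.85 ± 0.21 (limma adjusted p = 0.00326). In the iron list 5 of 20 were higher and 2 lower. Ncoa4, the receptor that sends ferritin to lysosomes, rose by 1.13 ± 0.13 (7.15e-08), from 29.4 to 59.4 RPKTM in RevDKO to 55.5 to 127 in RevScapTKO, and Slc11a1, an iron transporter of macrophage phagosomes, by 0.89 ± 0.22 (0.00307). Slc39a8, an importer of zinc and iron, was lower (-0.47 ± 0.12, 0.00641). Of 19 hepcidin control genes Bmp2, an endothelial ligand that induces hepcidin, rose by 0.52 ± 0.12 (0.00239). Sums of endothelial markers also moved, from a median of 1195 in RevDKO to 1921 in RevScapTKO, and their part in the Bmp2 value was not tested. Macrophage marker sums moved as well (1186 to 3167), and with their score as a covariate 1 of the 18 genes called over the 4 lists was called, Ncoa4 (1.20, limma adjusted p = 2.87e-05). Slc11a1 was then at 0.11 (adjusted p = 0.907), Slc48a1 at 0.60 (0.386), Slc39a8 at -0.30 (0.509) and Bmp2 at 0.40 (0.287).

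In RevScapTKO against Control hepatocytes (35.9% of all genes called), 2 of 8 heme synthesis genes were higher and 5 lower, among them Uros (0.71 ± 0.13, limma adjusted p = 0.000127) and Urod (-0.49 ± 0.11, 0.000693). In heme breakdown and transport 4 of 14 were higher and 1 lower, in the iron list 5 of 20 were higher and 4 lower, and in hepcidin control 1 of 19 was higher and 3 lower. Ncoa4 (1.1 ± 0.13, 6.85e-08), Cp, the ferroxidase ceruloplasmin (0.78 ± 0.17, 0.000632), and Bmp2 (0.61 ± 0.12, 0.000319) were among the higher. With the macrophage marker score as a covariate 2 of the 25 genes called over the 4 lists were called, Ncoa4 (1.18, adjusted p = 4.32e-05) and Uros (0.83, adjusted p = 0.00528). The Control, RevDKO and RevScapTKO comparisons share libraries, and no overlap between them was tested.

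In macrophages limma called none of the 61 genes of these lists in RevDKO against Control (0.574% of all genes), and 11 passed an unadjusted p under 0.05 (13.9% of all genes). RevScapTKO against RevDKO (1.23% of all genes higher and 1.78% lower) called 3, the erythroid enzyme Alas2 lower (-0.73 ± 0.21, limma adjusted p = 0.0495), and Lcn2, which binds iron-loaded siderophores, and Ncoa4 higher (3.15 ± 0.50, 8.08e-05, and 0.97 ± 0.27, 0.0368). Median Lcn2 was 1.96 RPKTM in RevDKO and 24.5 in RevScapTKO. Sums of erythroid markers, which include Alas2 itself, had a median of 570 RPKTM (158 to 3014) in RevDKO and 419 (151 to 1473) in RevScapTKO. The part of erythroid RNA in the Alas2 value was not tested. With the hepatocyte marker score as a covariate Lcn2 was called (3.45, limma adjusted p = 0.000325), and Alas2 (-0.68, adjusted p = 0.0699) and Ncoa4 (0.58, adjusted p = 0.197) were not. RevScapTKO against Control (3.76%) called Lcn2 (2.29 ± 0.50, 0.00464) and Ncoa4 (1.01 ± 0.27, 0.0252) higher and the iron regulatory protein gene Aco1 lower (-0.57 ± 0.14, 0.0165), and of these Ncoa4 was not called with that covariate (0.52, adjusted p = 0.244). The covariate raised the genes of the lists called to 5 and 10 of 61 in these comparisons, and the calls over all genes to 1538 and 2026. For a changed rhythm limma called 0 genes of the lists in either cell type. For RevDKO against Control the unadjusted p was under 0.05 for 2 of 61 genes in hepatocytes (4.91% of all genes) and 3 in macrophages (5.50%). For RevScapTKO against RevDKO it was under 0.05 for 2 (5.06% of all genes) and 4 (3.57%) of 61.

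The genes whose pattern over the 36 libraries of a table was most like each member, by Pearson r of log2(RPKTM + 1), are given as a description. In hepatocytes Hamp was most like Id3 (0.771), Hamp2 like Sulf2 (0.835) and the urea cycle gene Ass1 (0.819) after the locus LOC102631993 (0.845), Hfe like Clptm1 (0.825), Tfrc like Gpt2 (0.753), Fth1 like Ccng1 (0.752), Ftl1 like Creg1 (0.761), Alas1 like Zfp445 (0.743), Slc40a1 like Adam23 (0.833), then Robo4 (0.820), and Spic like Rgs2 (0.792). In macrophages Hamp2 was most like Hgd, Tst and Got1 (0.829, 0.796 and 0.788), Hmox1 like Asah1 (0.896), Ftl1 like Axl (0.911), Hfe like Itm2c (0.881) and Spic like Adgre4 (0.862). Hamp there was most like Apoc2, Lsr and Gm44805 (0.723, 0.697 and 0.696), and Alas1 like Map3k6, Tsku and Gstm1 (0.708, 0.688 and 0.681). Tfrc was most like Dpy19l1 (0.824) and Fth1 like Cd36 (0.764). The libraries of a table share genotype, hour and cell makeup, so a high r is not specific to a pair.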

How the data were processed

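Total RNA libraries of isolated hepatocytes and liver macrophages were aligned by the authors with STAR to mm9 and counted over RefSeq transcripts with HOMER, with versions not given in the sources used here. The deposited values are RPKTM, which is RPKM multiplied by 10, quantile normalized by the authors within each of 4 tables, so the sorted values were the same in every library of a table. Depth is unknown, and no count test or counting interval was possible. Of 42322 transcripts, 91 without a gene name were left out. For each gene the transcript of highest mean was kept, with over 5 RPKTM in at least 3 libraries, which left 13325 and 13946 genes in the 36-library hepatocyte and macrophage tables and 12723 and 13929 in those of ScapKO.

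Genotypes were compared with limma 3.58.1 in R 4.3.3 (empirical Bayes with trend) on log2(RPKTM + 1), with a mean for each genotype and time point. Time of day was an F test of a 24-h cosine and sine, and a changed rhythm an F test of their difference. Adjustment was by Benjamini-Hochberg over all genes kept. The scripts were tested on simulated data. All members were named, together with up to 5 called genes of the 4 pathway lists per comparison, those with the smallest adjusted p, and the 3 genes most like each member. Genes outside that rule are named where a count was small, after their values were seen. The members and lists were chosen with earlier results of these data known. Alternatives were another pseudocount, no filter, all transcripts, the replicate number as a block, free time point means, JTK_CYCLE, marker scores as covariates, fewer genotypes, and leaving out libraries. Covariates of a cell's own markers, those in the tests of time of day, the removal of libraries set apart, and covariates for genes of the lists were added after seeing the data.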

Additional observations from a re-analysis of the deposited data

How the results depend on the processing

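Hamp2 was called in RevDKO against Control and in RevScapTKO against RevDKO, in both cell types, without any single library. With the replicate number as a block, 2 members (Hamp and Hamp2) were called in RevDKO against Control hepatocytes (651 genes in all), and the block changed single calls elsewhere: Hfe joined in RevScapTKO against Control macrophages (adjusted p = 0.0192), Tfrc in RevDKO hepatocytes over the day (0.0477), and Alas1 replaced Hamp in ScapKO hepatocytes (0.0368 and 0.072). Deviations of same-numbered libraries had median correlations of 0.0228 to 0.141, with 3 to 8 of 12 pairs over 0.1 in a comparison, so the numbers were not taken to pair the samples. The count in RevDKO against Control hepatocytes was also 2 with the macrophage (713 genes in all) or hepatocyte (666) marker score as a covariate. It was 2 as well with only the 2 genotypes compared (840).

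With the score of the other cell type's markers, the count, Spic included, was 3 in RevScapTKO against RevDKO hepatocytes (347 genes in all against 3498), 2 in RevScapTKO against Control hepatocytes (786 against 4789), 2 in RevScapTKO against RevDKO macrophages (1538 against 419) and 5 in RevScapTKO against Control macrophages (2026 against 524). It was 1 for time of day in Control hepatocytes, 0 in RevDKO hepatocytes and 0 in RevDKO macrophages, where the score of own markers also gave 0. RevScapTKO against Control macrophages gave 0 without the filter, 1 without the libraries set apart and 1 with only the 2 genotypes. Without the filter, time of day gave 1 in RevDKO hepatocytes, 0 in RevDKO macrophages and 0 in ScapKO hepatocytes, and free time point means gave 0 in RevDKO macrophages. More genes enter the adjustment without the filter, and the cause of the other changes was not tested.

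JTK_CYCLE with the series entered 2 times called 3 members in Control hepatocytes (20.1% of all genes), 6 in RevDKO (19.8%), 1 in RevScapTKO (11.5%) and 2 in ScapKO hepatocytes (13.0%), and 1 in Control (10.2%), 3 in RevDKO (15.7%) and 1 in ScapKO macrophages (13.6%). Entered once and adjusted over genes, it called 0 members in Control, RevDKO and ScapKO hepatocytes and 0 in RevDKO macrophages, and 0 of all genes there. A call in that form needs many genes at or near its smallest possible p, so it has little power for single genes.

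Signs turned with the other marker score for Hmox1 (-0.39) in RevScapTKO against RevDKO hepatocytes, for Hmox1 (-0.68), Tfrc (-0.41) and Hamp (0.33) in RevScapTKO against Control hepatocytes, for Slc40a1 (-0.60) and Ftl1 (-0.014) in RevScapTKO against RevDKO macrophages, and for Fth1 (-0.12) and Ftl1 (-0.22) in RevScapTKO against Control macrophages. With the own marker score they turned for Fth1 (0.0094) in RevDKO against Control hepatocytes, for Fth1 (0.059), Ftl1 (0.19), Hamp (-0.13) and Spic (0.11) in RevDKO against Control macrophages, and for Slc40a1 (-0.078) in RevScapTKO against RevDKO macrophages. Without the libraries set apart they turned for Hamp (0.047) in RevScapTKO against Control hepatocytes and Ftl1 (0.070) in RevDKO against Control macrophages. None of these was called in the main test.

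Leaving out single libraries gave 1 to 2 members in RevDKO against Control, 6 to 7 in RevScapTKO against RevDKO and 4 to 5 in RevScapTKO against Control hepatocytes, and 1 to 1, 1 to 2 and 0 to 3 in macrophages. Time of day gave 2 to 5 in Control, 1 to 3 in RevDKO, 0 to 1 in RevScapTKO and 0 to 3 in ScapKO hepatocytes, 0 to 1 in RevDKO macrophages and 0 to 0 in the other macrophage groups, and a changed rhythm gave 0 to 0. The share of all genes called in each omission is not given, so these ranges describe the member counts only. Those of Control, RevDKO and RevScapTKO hepatocytes include Spic, which passed the filter there only through RevScapTKO libraries. Values whose sign turned ranged, in hepatocytes, from -0.12 to 0.033 for Fth1 in RevDKO against Control, from -0.18 to 0.024 for Tfrc and -0.034 to 0.24 for Hfe in RevScapTKO against RevDKO, and from -0.072 to 0.12 for Tfrc and -0.18 to 0.097 for Hamp in RevScapTKO against Control. In macrophages they ranged from -0.24 to 0.0014 for Ftl1 in RevDKO against Control, from -0.17 to 0.12 for Slc40a1 in RevScapTKO against RevDKO and from -0.028 to 0.22 for Fth1 in RevScapTKO against Control.

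Over the alternatives, genes called in all ranged from 468 to 1086 (590 in the main test) for RevDKO against Control, from 347 to 6791 (3498) for RevScapTKO against RevDKO and from 786 to 9197 (4789) for RevScapTKO against Control in hepatocytes, and from 41 to 438 (80), 357 to 1538 (419) and to 2026 at most (524) in macrophages. For time of day they ranged from 0 to 2679 (1105) in Control, 0 to 2645 (544) in RevDKO, 0 to 1535 (91) in RevScapTKO and 0 to 1650 (236) in ScapKO hepatocytes, and from 0 to 1422 (7), 0 to 2193 (353), 0 to 1074 (11) and 0 to 1889 (0) in macrophages in the same order. For a changed rhythm they ranged from 17 to 47 (27) and 0 to 4 (0) in hepatocytes and from 0 to 234 (0) and 0 to 0 (0) in macrophages. Depth is unknown, so the counting error of low values such as Spic in hepatocytes and Hamp2 in macrophages cannot be estimated.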
